A study of Homo sapiens with 20 samples.

Results

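Transcripts of 3 sugar transporters (SLC2A1, SLC2A3 and SLC2A5) and 7 glycolytic enzymes (HK1, HK2, PFKP, ALDOA, ENO1, PKM and LDHA) were followed in 5 lines labelled as classical Hodgkin lymphoma, after activation of FOXO1. Members were the probe sets annotated to exactly 1 of these symbols. Each of the 10 genes had 1 such probe set, of 18416 genes named on the array, and all 10 passed the floor on low values (log2 value of at least 5 in at least 2 arrays), as did 15850 genes in all. The lines were SUP-HD1, KM-H2, L1236, L428 and UHO-1. All of them stably expressed FOXO1(3A)ER, a mutant of FOXO1 that AKT cannot switch off, fused to the part of the oestrogen receptor that binds its ligand. Vehicle groups carried the fusion too and received ethanol; treated groups received 4-hydroxytamoxifen (4-OHT), which switches the fusion on, for 24 h. Each arm of each line had 2 arrays, 20 in all. The treatment text of the labels gives 200 µM 4-OHT but names KLF4ER cells, so the dose is given only as labelled. It is not stated whether a line was a clone or a pool. By the same text the whole experiment was carried out 2 times. Separate cultures for the arrays of an arm are not stated otherwise, so p-values measure only how far these arrays spread, which may be technical. No line without the fusion received 4-OHT among the arrays used here, so effects of 4-OHT itself and of FOXO1 cannot be told apart.

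Glucose enters cells through facilitative transporters of the SLC2A family, and SLC2A5 carries fructose. Hexokinase traps glucose as a phosphate, phosphofructokinase commits it to glycolysis, aldolase splits the sugar, enolase and pyruvate kinase complete the path to pyruvate, and lactate dehydrogenase A turns pyruvate into lactate. Lymphoma cells commonly take up much glucose, which is the basis of their imaging with labelled glucose analogues. FOXO1 is a transcription factor restrained by growth factor signals through PI3K and AKT, and the same signals favour glucose use in lymphocytes.

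Values are log2 expression units, so a difference of 1 is a doubling. By their sorted values, arrays of KM-H2 and L428 (8 arrays, medians 5.67 to 5.71) and of the other 3 lines (12 arrays, medians 6.26 to 6.41) formed separate sets. Separate normalisation is inferred from these values alone, and levels are compared only within a set. Within an arm, the arrays differed with an SD over tested genes of 0.133 to 0.204. For arrays, their number limits the precision. Values are relative to the other transcripts on the array, so less RNA per cell would not show as a fall, and a change in the share of a subset of cells and a change within each cell cannot be told apart.

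The arrays labelled L1236 went against their label. T cell markers (CD3D, CD3E, CD3G, CD2 and TRAT1) had vehicle means of 9.76 to 12.2 there, 5 of 5 at 8 or more, and sums over the list of 54.9 to 56.4 over its arrays. In UHO-1 and SUP-HD1, of the same set, these sums were 25.1 to 26.9. Of 8 Hodgkin cell markers (TNFRSF8, CCL17, CCL22, FSCN1, IRF4, LTA, CD40 and TRAF1), 0 reached 8 in the arrays labelled L1236, against 8 in UHO-1 and 5 in SUP-HD1. Their sums were 52.4 to 54.1 with the label L1236, 86.3 to 88 in UHO-1 and 75.3 to 75.9 in SUP-HD1. None of these markers was at 0. In the other set, 5 Hodgkin cell markers reached 8 in KM-H2 vehicle arrays and 7 in L428, and T cell markers summed to 20.9 to 21.8. Of the 4 B cell markers measured (MS4A1, CD79A, CD79B and PAX5), MS4A1 never reached the floor and 0 reached 8 in KM-H2 or L428. PAX5 alone reached 8 in UHO-1 and SUP-HD1, and CD79A alone did so in the arrays labelled L1236. Averages of the members, and their differences between lines where these passed, are given with and without the arrays labelled L1236. Some correlations and several results on other genes are given only with those arrays in. The plot of marker levels shows this line apart from the others for the T cell markers. The Hodgkin cell markers did not all set it apart within its set. Against SUP-HD1 vehicle arrays, 7 of the 8 were called lower, but TNFRSF8 was higher by 0.62 ± 0.091 (limma, adjusted p = 2.6e-06). Between these vehicle arrays 57.5% of all tested genes differed. Against UHO-1 all 8 were called lower.

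**Figure D1:**
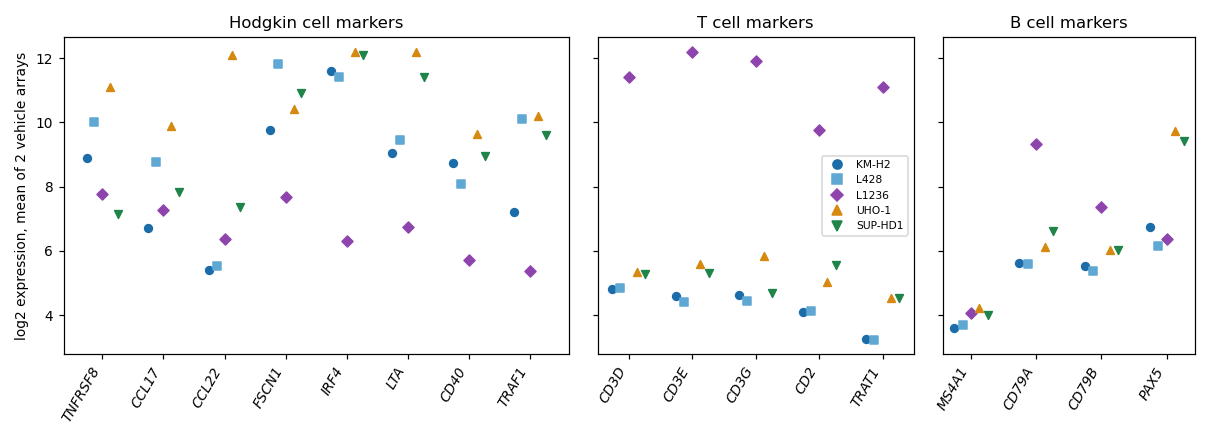
Log2 expression of Hodgkin cell, T cell and B cell markers, as the mean of the 2 vehicle arrays of each line, with 1 symbol and colour per line. The arrays labelled L1236 (diamonds) lie at 9.76 to 12.2 for the T cell markers, above every other line, and below 8 for all 8 Hodgkin cell markers.

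Other cell type markers also moved with 4-OHT. In the arrays labelled L1236, CD79A rose by 2.36 ± 0.13 (SE) and LYZ by 3.66 ± 0.13, while CD2 changed by -1.20 ± 0.12 and PECAM1 by -0.94 ± 0.12. The sum of the 5 myeloid markers (CD14, CSF1R, LYZ, MPO and ITGAM) went there from between 26.2 and 26.9 to between 30.4 and 30.8, and that of the 5 stromal markers (COL1A1, COL1A2, COL3A1, PDGFRB and PECAM1) went from between 35.5 and 36 to between 35.2 and 35.5. Of the 5 T cell markers in these arrays, 1 was called higher (adjusted p below 0.05) and 1 lower. Their changes ran from -1.20 to 0.39, and TRAT1 went from 11.1 to 11.5. Of the 5 myeloid markers 1 was called higher and 0 lower, and of the 5 stromal markers 0 higher and 1 lower. Over all tested genes 8.25% were called higher there and 14.9% lower. In KM-H2 the myeloid sum went from between 26.2 and 26.5 to between 24 and 24.8, and ITGAM changed by -1.60 ± 0.13. The sum of Hodgkin cell markers went from between 67.1 and 67.6 to between 62.8 and 63.4 in KM-H2, and from between 75 and 75.1 to between 70.8 and 71.2 in L428. The part of these shifts in the results on glycolysis was not tested.

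The regions just before the transcription start of 6 members are shown first, because transporters and enzymes are set side by side below. RefSeq promoters (GRCh38.p14) were found for 9 of the 10 members: all but SLC2A3. Each line gives the 250 bases before the start site, 5′ to 3′ along the gene, of the first listed start. Capitals mark matches, on either strand, to 5 motifs. The FOXO motif was searched as GTAAACA. The E-box, which MYC binds, was searched as CACGTG. The core of the hypoxia response element was searched in a form with A first, read as ACGTG. A form with G first was read as GCGTG. The TATA box was searched by the letters TATAAA. SLC2A1 is shown as the transporter with the largest rise, SLC2A5 as a transporter with changes of both signs, HK2 as the enzyme with the largest falls, and ENO1, PKM and LDHA as the late steps.
SLC2A1 (chr1:42958869-42959118, minus strand): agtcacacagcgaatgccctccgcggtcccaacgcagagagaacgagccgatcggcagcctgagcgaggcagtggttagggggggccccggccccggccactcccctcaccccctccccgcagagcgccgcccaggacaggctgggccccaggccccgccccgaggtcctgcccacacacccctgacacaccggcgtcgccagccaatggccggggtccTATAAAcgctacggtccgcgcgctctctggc
SLC2A5 (chr1:9069636-9069885, minus strand): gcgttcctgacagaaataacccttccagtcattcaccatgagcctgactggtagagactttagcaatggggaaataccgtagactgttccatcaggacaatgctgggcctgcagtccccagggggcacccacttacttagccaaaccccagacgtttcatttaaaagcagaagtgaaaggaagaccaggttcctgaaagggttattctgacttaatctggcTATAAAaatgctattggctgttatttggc
HK2 (chr2:74833877-74834126, plus strand): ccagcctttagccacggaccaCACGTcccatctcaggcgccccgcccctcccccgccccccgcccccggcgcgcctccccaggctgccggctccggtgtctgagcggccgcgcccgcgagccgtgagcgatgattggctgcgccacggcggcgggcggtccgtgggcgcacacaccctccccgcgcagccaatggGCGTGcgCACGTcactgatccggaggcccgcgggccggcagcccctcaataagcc
ENO1 (chr1:8878687-8878936, minus strand): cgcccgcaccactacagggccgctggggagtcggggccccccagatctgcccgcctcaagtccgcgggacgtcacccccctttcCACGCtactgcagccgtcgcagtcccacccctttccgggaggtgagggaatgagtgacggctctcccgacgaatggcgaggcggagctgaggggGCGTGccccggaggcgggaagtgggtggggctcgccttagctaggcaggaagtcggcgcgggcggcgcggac
PKM (chr15:72231191-72231440, minus strand): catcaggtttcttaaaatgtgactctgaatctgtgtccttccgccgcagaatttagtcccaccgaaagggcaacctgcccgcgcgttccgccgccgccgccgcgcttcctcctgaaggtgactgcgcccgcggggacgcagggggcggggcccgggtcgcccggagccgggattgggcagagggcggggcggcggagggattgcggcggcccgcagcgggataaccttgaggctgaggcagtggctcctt
LDHA (chr11:18394313-18394562, plus strand): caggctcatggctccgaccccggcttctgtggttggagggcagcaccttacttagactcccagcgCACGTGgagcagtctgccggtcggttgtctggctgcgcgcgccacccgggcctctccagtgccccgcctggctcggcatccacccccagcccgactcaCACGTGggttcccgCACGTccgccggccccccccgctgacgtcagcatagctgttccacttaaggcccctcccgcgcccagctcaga

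SLC2A1 held a TATA box whose first base lies 31 bases before the start, and SLC2A5 held one at 29. HK2 held the A form of the hypoxia core on the opposite strand at 229 and 48 bases before the start, and the G form at 55. ENO1 held the G form at 166 and 72. LDHA held the E-box at 185 and 87 bases before the start and the A form of the hypoxia core again at 73, and the window of PKM held none of the 5 motifs. Each E-box holds the A form on both strands, so these matches overlap. A second start of HK2 and one of ALDOA also held the E-box. In windows not shown, the A form was also found for HK2, PFKP and ALDOA. The G form was found there for HK1, HK2, PFKP and LDHA. The FOXO motif was in none of the windows of the 9 members. Of 35116 RefSeq promoters of the same length, 2.98% held the FOXO motif, 6.34% the E-box, 18.5% the A form and 32.2% the G form of the hypoxia core, and 10.7% the TATA box. A match describes letters and not a bound site.

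On average over the 5 lines, 6 of the 7 enzymes were lower with 4-OHT and 0 were higher, whereas of the 3 transporters 1 was higher and 0 were lower. The higher transporter was SLC2A1, and its average rests on KM-H2. Without that line the SLC2A1 average was called lower (-0.082, limma, adjusted p = 0.0347). The medians of the changes were -0.21 for the enzymes, -0.075 for the transporters and -0.025 over all tested genes. By limma's test with Benjamini-Hochberg adjustment, 21.2% of all tested genes were called lower and 17.4% higher on average. Without the arrays labelled L1236 the enzyme count was again 6 lower and 0 higher, and the transporters gave 1 higher and 1 lower, where 21.0% of genes were called lower and 18.2% higher. With the 5 lines as the replicates, 0 of the 15850 genes passed, 2373 had an unadjusted p below 0.05, and 5 of the 7 enzymes were among these (adjusted p = 0.305 to 0.309), so the calls on the average describe these 5 lines only. Transporters and enzymes are set side by side by counts, and no test was run over members.

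Line by line, the called enzyme changes were all falls, and the called transporter changes went both ways. Over the 7 enzymes and 5 lines, 19 of 35 changes were called lower, 0 higher and 16 were not called. Over the 3 transporters, 4 of 15 were called higher, 4 lower and 7 were not called. Those of SLC2A1 in UHO-1 and SUP-HD1, SLC2A5 in L428 and SLC2A3 in the arrays labelled L1236 were lost in some settings. By line, the enzymes called lower were 3 in KM-H2, where 12.3% of tested genes were called lower, 5 in L428 (17.5%), 6 in the arrays labelled L1236 (14.9%), 3 in UHO-1 (11.1%), then 2 in SUP-HD1 (2.35%). Genes called higher made up 10.0%, 12.0%, 8.25%, 13.4% and 3.68% of those tested in the same order. The enzyme medians in that order were -0.16, -0.38, -0.26, -0.14 and -0.10, and the transporter medians were 0.25, -0.25, -0.014, -0.20 and -0.13. Treated arrays lay wholly below vehicle in 28 of the 35 enzyme comparisons and 8 of the 15 of transporters, and wholly above in 2 and 5. Over all tested genes the treated arrays lay wholly below in 30.0% in KM-H2, 32.4% in L428, 25.4% in SUP-HD1, 39.5% in UHO-1 and 28.6% in the arrays labelled L1236, and wholly above in 28.0%, 27.7%, 19.1%, 31.1% and 20.9% in that order. Leaving out the arrays labelled L1236 takes away 6 of the 19 lower enzyme calls and 1 higher transporter call. In UHO-1 the enzyme count depended on the scaling, with 1 after median centring and 5 after quantile normalisation. In SUP-HD1 it was 1 in 4 other settings and without vehicle array 1, 4-OHT array 1 or 4-OHT array 2.

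**Figure D2:**
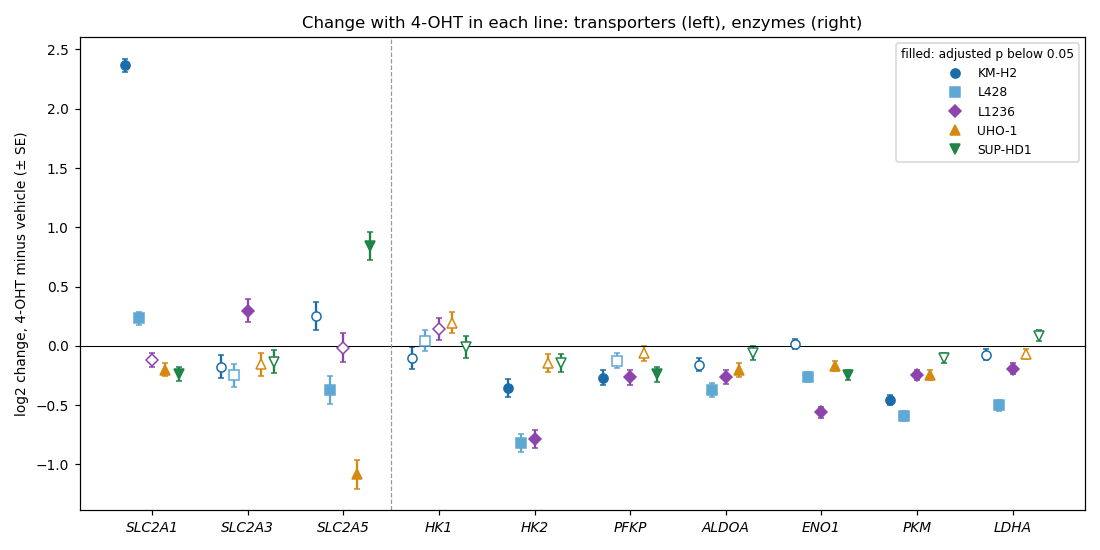
Log2 change with 4-OHT against the line's own vehicle arrays (y axis, ± SE from limma) for each member (x axis), with 1 symbol and colour per line and filled symbols for an adjusted p below 0.05. Enzymes with a filled symbol all lie below 0, while SLC2A1 in KM-H2 (2.37) and SLC2A5 in SUP-HD1 (0.84) lie well above 0 and SLC2A5 in UHO-1 (-1.08) well below.

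SLC2A1 (probe set 7915472) encodes GLUT1, the widespread basal glucose transporter. In KM-H2 it read 10.24 and 10.12 with vehicle and 12.55 and 12.55 with 4-OHT. L428 arrays read 9.94 and 9.95 with vehicle and 10.22 and 10.13 with 4-OHT. Both lines were thus higher with 4-OHT without overlap, and the treated KM-H2 arrays stood above every other array of their set. In the arrays labelled L1236 the values were 10.14 and 10.14, then 10.03 and 10.01. UHO-1 gave 11.09 and 11.01, then 10.90 and 10.79, and SUP-HD1 gave 9.46 and 9.46, then 9.25 and 9.19. In these 3 lines every treated array lay below every vehicle array. The rise in KM-H2 was 2.37 ± 0.056 (5.15-fold, adjusted p = 4.61e-19), the rise in L428 was 0.23 ± 0.056 (0.00263), and the falls in UHO-1 and SUP-HD1 were -0.20 (0.0127) and -0.24 (0.011). The change labelled L1236 was not called (-0.12, adjusted p = 0.145).

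The SLC2A1 response differed between the lines (limma F test, adjusted p = 1.47e-16, where 42.7% of tested genes passed), also without the arrays labelled L1236 (6.11e-15, where 36.4% passed). KM-H2 exceeded L428 by 2.13 ± 0.079 (adjusted p = 8.23e-15, where 22.9% of genes differed). The average of 0.41 ± 0.025 (adjusted p = 1.07e-11, 0.54 ± 0.029 without the arrays labelled L1236) rests on KM-H2: without that line it was -0.082 (adjusted p = 0.0347). The call in UHO-1 was lost after median centring (0.154), without vehicle array 1 (0.113) and without 4-OHT array 2 (0.152). In SUP-HD1 it was lost after median centring (0.0774), without the intensity trend (0.0681), with the line's 4 arrays alone (0.0738), without vehicle array 2 (0.0554) and without 4-OHT array 2 (0.148).

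SLC2A3 (probe set 7960865) encodes GLUT3, a transporter of high glucose affinity. Its near-identical neighbour SLC2A14 may share signal with it. SUP-HD1 stood far above the rest of its set, at 11.28 and 11.24 with vehicle and 11.10 and 11.15 with 4-OHT. UHO-1 read 7.95 and 7.76, then 7.79 and 7.61, with overlapping arms. In the arrays labelled L1236 the values were 8.34 and 8.21, then 8.63 and 8.51, treated above vehicle. The changes in the other 4 lines lay between -0.25 and -0.13 and were not called (adjusted p = 0.0579 to 0.579). KM-H2 read 7.77 and 7.76, then 7.70 and 7.48, and L428 read 8.77 and 8.48, then 8.33 and 8.42, with treated arrays below vehicle in both.

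The rise of SLC2A3 in the arrays labelled L1236, 0.30 ± 0.097 (adjusted p = 0.0295), was the only called change of this gene in a line as reported. It was lost after median centring (0.133), without the intensity trend (0.0605), with all probe sets tested (0.0625), with 4 arrays alone (0.065) and without vehicle array 2 (0.219) or 4-OHT array 1 (0.186). The difference between lines passed with all 5 (adjusted p = 0.0162) but not without the arrays labelled L1236 (0.878). The average moved from -0.084 ± 0.043 (adjusted p = 0.137) to -0.18 ± 0.048 without them (0.00498), and it also passed without L428 vehicle array 2 (-0.11, adjusted p = 0.0347). The change in L428 passed after median centring (0.0482), with a replicate block (0.0438) and without L428 vehicle array 2 (-0.40, adjusted p = 0.00911), KM-H2 4-OHT array 1 (0.0482) or KM-H2 4-OHT array 2 (0.048).

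SLC2A5 (probe set 7912224) encodes GLUT5, which carries fructose. UHO-1 read 7.66 and 7.73 with vehicle and 6.58 and 6.64 with 4-OHT. In SUP-HD1 the values were 7.76 and 7.90, then 8.60 and 8.75. The vehicle arrays of these lines were alike, and the treated arrays lay on opposite sides of them with no overlap. KM-H2 read 7.44 and 7.34, then 7.60 and 7.68, and L428 read 8.78 and 9.07, then 8.50 and 8.60. Those labelled L1236 read 6.80 and 6.39, then 6.42 and 6.74, with arms that overlapped.

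SLC2A5 fell by 1.08 ± 0.12 in UHO-1 (2.12-fold lower, adjusted p = 1.09e-06) and rose by 0.84 ± 0.12 in SUP-HD1 (1.79-fold, adjusted p = 8.95e-05). The difference between these responses was -1.93 ± 0.18 (adjusted p = 1.71e-07), where 4.04% of tested genes differed. In L428 the change was -0.37 ± 0.12 (adjusted p = 0.0263), and in KM-H2 it was 0.25 (0.174), a value that passed with the 4 arrays of KM-H2 alone (0.045). The L428 call was lost with all probe sets tested (0.0581) and without vehicle array 2 (0.33), 4-OHT array 1 (0.155) or 4-OHT array 2 (0.0559). The KM-H2 response exceeded that of L428 by 0.62 ± 0.18 (adjusted p = 0.0116, 0.0877 without L428 vehicle array 2). The average was not called (-0.075 ± 0.056, adjusted p = 0.321, and -0.090 without the arrays labelled L1236), and it was 0.18 without UHO-1 (0.0379) and -0.30 without SUP-HD1 (0.000555). Being called higher in at least 1 line and lower in at least 1, as SLC2A1 and SLC2A5 were, held for 8.12% of all tested genes.

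**Figure D3:**
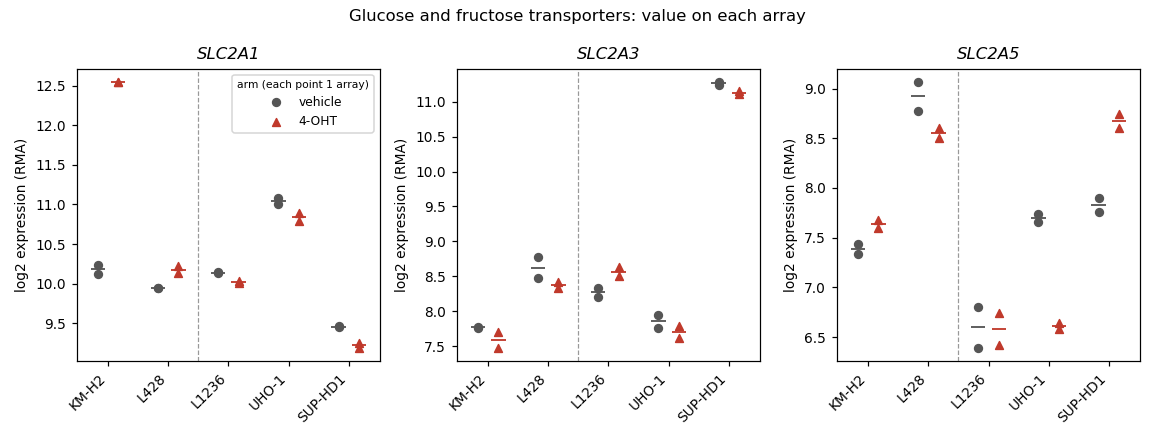
Log2 expression of the 3 transporters on each array (y axis), by line (x axis), with vehicle arrays as grey circles, 4-OHT arrays as red triangles and short bars at the mean of 2 arrays. The dashed line divides the sets of arrays told apart by their sorted values. SLC2A1 rises from 10.24 and 10.12 to 12.55 in KM-H2, SLC2A3 is highest in SUP-HD1, and SLC2A5 moves in opposite directions in UHO-1 and SUP-HD1.

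HK1 (probe set 7928019), the constitutive hexokinase, was the enzyme with no call in any line. UHO-1 read 6.94 and 6.90 with vehicle and 7.15 and 7.09 with 4-OHT, the lowest values of its set. Elsewhere HK1 lay between 7.98 and 8.57 over both arms. Treated arrays lay above vehicle in UHO-1 and in the arrays labelled L1236, below it in KM-H2, and overlapped it in L428 and SUP-HD1. The average change was 0.054 ± 0.041 (adjusted p = 0.327, 0.032 and 0.613 without the arrays labelled L1236), and the difference between lines was not called (0.263).

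HK2 (probe set 8042942), the inducible hexokinase bound to mitochondria in many tumours, was lower in all treated arrays of each line. How many of all tested genes were so in every line was not counted. In L428 it read 9.12 and 9.26 with vehicle and 8.28 and 8.46 with 4-OHT. With the label L1236 the arrays read 9.02 and 9.09, then 8.32 and 8.20. KM-H2 read 9.69 and 9.60, then 9.33 and 9.23. These were the lines with the wider gaps. In UHO-1 the values were 8.63 and 8.64, then 8.46 and 8.53, and in SUP-HD1 they were 9.04 and 9.02, then 8.88 and 8.88.

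The fall of HK2 was -0.82 ± 0.076 in L428 (1.77-fold lower, adjusted p = 1.54e-08), -0.79 ± 0.076 in the arrays labelled L1236 (1.73-fold lower, 4.39e-08) and -0.36 ± 0.076 in KM-H2 (0.000975). The changes in UHO-1 (-0.14, adjusted p = 0.17) and SUP-HD1 (-0.15, 0.349) were not called, although UHO-1 passed after quantile normalisation (-0.22, 0.0299). On average HK2 fell by 0.45 ± 0.034 (adjusted p = 2.95e-10), and by 0.37 ± 0.037 without the arrays labelled L1236 (9.36e-08). The response differed between lines (F test, adjusted p = 8.44e-06, and 7.69e-05 without the arrays labelled L1236). L428 fell more than KM-H2 by 0.46 ± 0.11 (KM-H2 minus L428, adjusted p = 0.00257). The arrays labelled L1236 fell more than the mean of UHO-1 and SUP-HD1, with a difference of -0.65 ± 0.093 (2.2e-05), where 22.7% of tested genes differed.

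PFKP (probe set 7925876), the platelet form of phosphofructokinase, had treated arrays below vehicle in 4 lines and overlapping arms in UHO-1. KM-H2 read 10.10 and 10.11 with vehicle and 9.85 and 9.82 with 4-OHT, a change of -0.27 ± 0.065 (adjusted p = 0.00344). L1236-labelled arrays read 10.52 and 10.56, then 10.28 and 10.26, a change of -0.27 (0.00379). SUP-HD1 was the line with the lowest PFKP of its set, at 9.65 and 9.58, then 9.42 and 9.33 (-0.24, adjusted p = 0.0275). The changes in L428 (-0.13, 0.17) and UHO-1 (-0.063, 0.484) were not called. The average was -0.19 ± 0.029 (adjusted p = 1.1e-05), -0.17 ± 0.034 without the arrays labelled L1236 (0.000299), and the difference between lines was not called (0.192). The SUP-HD1 call was lost after median centring (0.133), without the intensity trend (0.103), with all probe sets tested (0.0673), with 4 arrays alone (0.0753), and without vehicle array 1 (0.181), 4-OHT array 1 (0.0594) or 4-OHT array 2 (0.288).

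ALDOA (probe set 7994737), the aldolase of most proliferating cells, was lower in every treated array than in every vehicle array of its line, in all 5 lines. As for HK2, the share of all tested genes with this pattern was not counted. L428 read 9.53 and 9.55 with vehicle and 9.19 and 9.14 with 4-OHT (-0.37 ± 0.058, adjusted p = 2.23e-05). Under the label L1236 they read 9.97 and 10.02, then 9.73 and 9.73 (-0.26, 0.00154). Smaller gaps were seen in UHO-1, at 9.90 and 9.98, then 9.77 and 9.71 (-0.20, 0.0145). KM-H2 (-0.16, 0.0532) and SUP-HD1 (-0.062, 0.703) were not called. The average was -0.21 ± 0.026 (adjusted p = 5.9e-07), and -0.20 ± 0.029 without the arrays labelled L1236 (1.42e-05).

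Some calls of ALDOA rested on the setting. KM-H2 passed after quantile normalisation (adjusted p = 0.0383) and with a floor of 6 (0.0453), and UHO-1 was lost after median centring (0.159) and without vehicle array 2 (0.143) or 4-OHT array 2 (0.117). The difference between lines passed as reported (0.0338, and 0.0317 without the arrays labelled L1236). It was lost after quantile normalisation (0.0787), cyclic loess (0.0649), without the intensity trend (0.0854) and with a replicate block (0.0853). Single arrays also ended it: KM-H2 vehicle 2 (0.0523), L428 vehicle 1 (0.0692), L428 vehicle 2 (0.0859), L428 4-OHT 2 (0.0977), SUP-HD1 vehicle 1 (0.0587), SUP-HD1 vehicle 2 (0.0581) and SUP-HD1 4-OHT 1 (0.107).

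ENO1 (probe set 7912198) encodes enolase, which forms phosphoenolpyruvate. The arrays labelled L1236 had the widest gap, at 12.61 and 12.60 with vehicle and 12.04 and 12.05 with 4-OHT. L428 read 13.43 and 13.45, then 13.21 and 13.14. SUP-HD1 read 12.32 and 12.37, then 12.10 and 12.09. All of these arms were apart. UHO-1 read 12.28 and 12.15, then 12.05 and 12.04, also apart, whereas KM-H2 read 13.38 and 13.38, then 13.43 and 13.35, and overlapped.

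The fall of ENO1 was called in 4 lines: -0.56 ± 0.043 in the arrays labelled L1236 (1.48-fold lower, adjusted p = 1.16e-09), -0.26 in L428 (4.19e-05), -0.25 in SUP-HD1 (0.000546) and -0.17 in UHO-1 (0.00587). KM-H2 changed by 0.014 ± 0.043 (0.894), and its response differed from that of L428 by 0.28 ± 0.06 (adjusted p = 0.00153). The average was -0.25 ± 0.019 (adjusted p = 4.95e-10) and -0.17 ± 0.023 without the arrays labelled L1236 (5.26e-06). The difference between lines held with and without those arrays (adjusted p = 2e-06 and 0.00627), and their fall exceeded the mean of UHO-1 and SUP-HD1 by -0.35 ± 0.052 (3.17e-05). The UHO-1 call was lost after median centring (0.131), without the intensity trend (0.0682) and without vehicle array 1 (-0.11, 0.127).

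PKM (probe set 7990151) encodes pyruvate kinase M, which yields ATP and pyruvate. The probe set gives 1 value for all its splice forms. KM-H2 read 12.33 and 12.32 with vehicle and 11.86 and 11.88 with 4-OHT. L428 read 12.32 and 12.33, then 11.71 and 11.75. UHO-1 read 12.82 and 12.77, then 12.57 and 12.53. Treated arrays lay below vehicle here and in the other 2 lines, a pattern whose share over all tested genes was not counted. Arrays labelled L1236 read 11.78 and 11.76, then 11.57 and 11.48, and SUP-HD1 read 12.45 and 12.54, then 12.40 and 12.39.

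PKM fell by 0.59 ± 0.042 in L428 (1.51-fold lower, adjusted p = 2.62e-10), 0.46 ± 0.042 in KM-H2 (1.16e-08), 0.25 in UHO-1 (0.000197) and 0.24 in the arrays labelled L1236 (0.00013). SUP-HD1 was not called (-0.10, adjusted p = 0.185). On average the fall was -0.33 ± 0.019 (adjusted p = 3.19e-12), -0.35 ± 0.021 without the arrays labelled L1236 (3.2e-11). Lines differed in the size of the fall (F test, 4.29e-06, and 6.64e-06 without those arrays). ENO1 and PKM were each called lower in 4 lines, and 1.41% of all tested genes in at least 4. HK2, PFKP and ALDOA were each called lower in 3 lines, and 4.62% of all tested genes in at least 3. With the arrays labelled L1236 set aside, ENO1 and PKM were called lower in 3 lines, and HK2, PFKP and ALDOA in 2. The shares over all tested genes were counted only with those arrays in.

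LDHA (probe set 7938777) makes lactate and restores the NAD that glycolysis consumes. In L428 it read 12.35 and 12.35 with vehicle and 11.88 and 11.82 with 4-OHT, a change of -0.50 ± 0.046 (1.42-fold lower, adjusted p = 1.62e-08). For the label L1236 the values were 12.51 and 12.57, then 12.35 and 12.34, a change of -0.19 ± 0.046 (0.00323). In KM-H2 the values were 12.04 and 12.03, then 11.98 and 11.94 (-0.075, 0.315). These 3 lines had treated arrays below vehicle, as did UHO-1, at 12.52 and 12.46, then 12.44 and 12.40 (-0.069, 0.27). SUP-HD1 overlapped, at 12.89 and 12.72, then 12.88 and 12.91 (0.086, 0.391).

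The average fall of LDHA, -0.15 ± 0.021 (adjusted p = 3.35e-06), rests mainly on L428: without that line it was -0.063 (0.0537), and without the arrays labelled L1236 it was -0.14 ± 0.024 (9.78e-05). KM-H2 and L428 differed by 0.43 ± 0.066 (adjusted p = 3.59e-05), and the F test passed with and without the arrays labelled L1236 (3.23e-06 and 8.26e-06). The call in the arrays labelled L1236 was lost without the intensity trend (0.057) and without vehicle array 2 (0.0503). UHO-1 was called lower after quantile normalisation (-0.11, 0.0467) and cyclic loess (-0.13, 0.00888), and SUP-HD1 was called higher without vehicle array 1 (0.17, 0.0359). The responses of UHO-1 and SUP-HD1 did not pass as different (-0.16, adjusted p = 0.212), but did after quantile normalisation (-0.21, 0.0376), cyclic loess (-0.22, 0.00869) and without SUP-HD1 vehicle array 1 (-0.24, 0.0296). The arrays labelled L1236 differed from the mean of those lines by -0.20 ± 0.057 (0.0129), a call lost after cyclic loess (0.0718), without the intensity trend (0.1) and without L1236 vehicle array 2 (0.0863) or 4-OHT array 2 (0.0645).

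**Figure D4:**
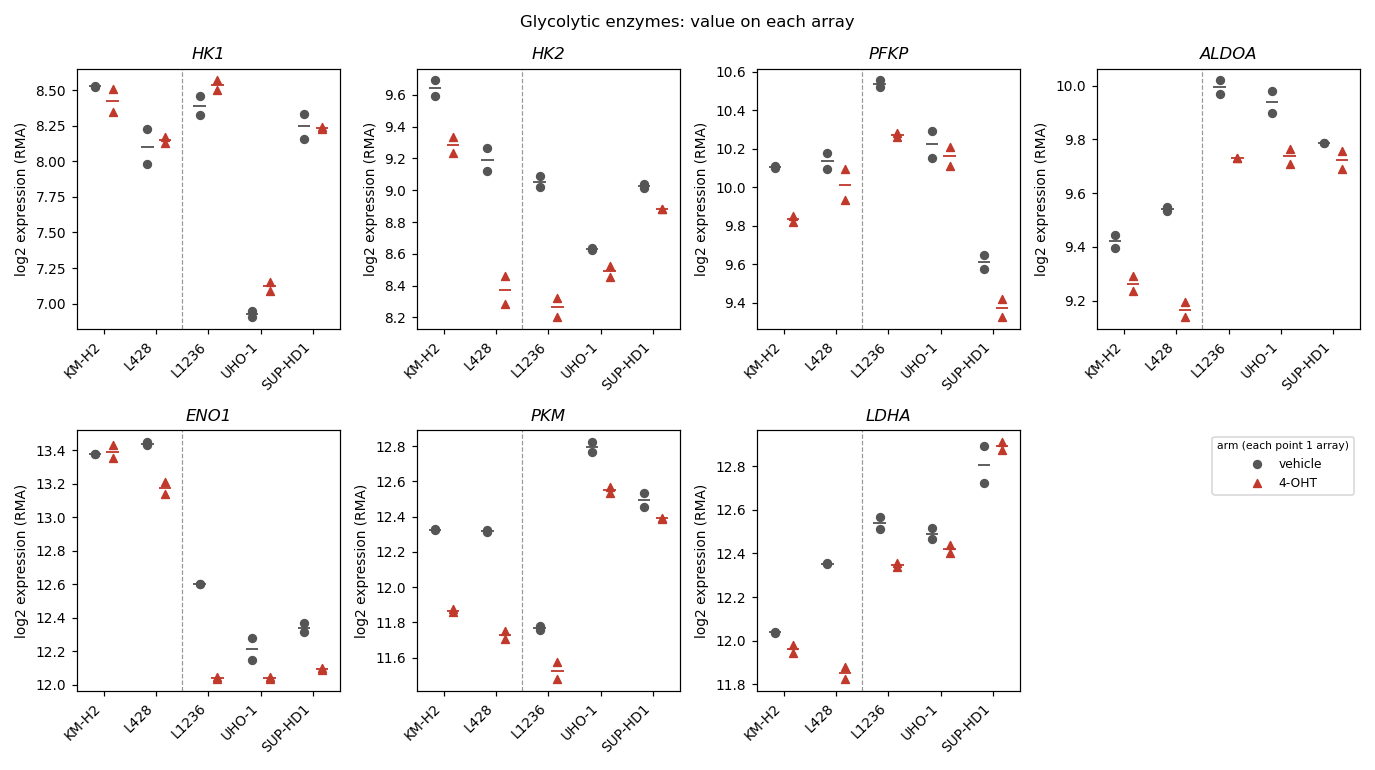
Log2 expression of the 7 enzymes on each array (y axis), by line (x axis), with vehicle arrays as grey circles, 4-OHT arrays as red triangles and short bars at the mean of 2 arrays. The dashed line divides the sets of arrays told apart by their sorted values. Treated arrays lie below vehicle in all 5 lines for HK2, ALDOA and PKM, and HK1 shows no common direction. In single lines 25.4% to 39.5% of all tested genes lay wholly below, and the share that did so in all 5 was not counted.

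Vehicle levels were compared between lines of a set. Among vehicle arrays, SUP-HD1 held 10.6-fold more SLC2A3 than UHO-1 (UHO-1 minus SUP-HD1, -3.40 ± 0.097, adjusted p = 1.14e-18), whereas UHO-1 held 3.0-fold more SLC2A1 (1.59 ± 0.056, 5.91e-17). Of the 10 members 9 were called different between these lines, as were 53.8% of all tested genes. SLC2A5 did not pass as different between them (-0.13 ± 0.12, adjusted p = 0.399), although its response there was opposite. HK1 was lower in UHO-1 than in SUP-HD1 by 1.32 ± 0.091 (1.23e-11) and PFKP was higher by 0.61 ± 0.065 (2.41e-08). The other 5 enzymes differed by -0.40 to 0.30 and were all called, those of ALDOA (0.15, adjusted p = 0.0278) and ENO1 (-0.13, 0.0134) not in every setting. That of ALDOA was lost after median centring (0.353), without the intensity trend (0.0556) and without UHO-1 vehicle 2 (0.215), SUP-HD1 vehicle 1 (0.0858) or SUP-HD1 vehicle 2 (0.0756). That of ENO1 was lost without the intensity trend (0.116), without UHO-1 vehicle 2 (0.311) and without SUP-HD1 vehicle 2 (0.091).

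Between KM-H2 and L428, 6 of the 10 members were called different, close to the 54.2% of all tested genes. L428 held 2.89-fold more SLC2A5 (KM-H2 minus L428, -1.53 ± 0.12, adjusted p = 2.17e-10) and 1.81-fold more SLC2A3 (-0.86 ± 0.097, 5.89e-08). SLC2A1 was higher in KM-H2 by 0.23 ± 0.056 (0.000976), as were HK1 by 0.43 and HK2 by 0.45, and LDHA was lower by 0.32. PFKP, ALDOA, ENO1 and PKM did not pass (differences of -0.12 to 0.0056). The arrays labelled L1236 differed from UHO-1 in 8 of the 10 members, where 56.8% of tested genes differed, with 2.04-fold less PKM and 2.76-fold more HK1. Against SUP-HD1 they also differed in 8 of 10 (57.5%), with 7.94-fold less SLC2A3.

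Correlations between members were taken over the arrays after each line was centred on its own mean. HK1, the enzyme with no call, was set apart after its values were seen. The other 6 enzymes gave 15 pairs, all with a positive Pearson r over 20 arrays, from 0.46 to 0.91 with a median of 0.762, and from 0.35 to 0.935 over the 16 arrays not labelled L1236. The 3 transporter pairs ran from -0.307 to 0.143 over 20 arrays, and from -0.338 to 0.148 over the 16 arrays not labelled L1236. HK1 against the other 6 enzymes ran from -0.452 to 0.0348 over 20 arrays. The 18 pairs of a transporter with 1 of the 6 enzymes ran from -0.554 to 0.445 (median 0.0911), and 11 were positive. These correlations are descriptions, with no test of a difference between the groups, since all points share the arm contrast, the lines and the normalisation. The 6 enzymes set apart from HK1 were those called lower on average, and the share of positive pairs among other genes was not counted. Over the same 20 arrays, the genes most like SLC2A1 were DAPL1 (r = 0.984), LUM (0.981) and SH3D19 (0.979). Those most like SLC2A3 were CELF2 (0.819), GRK2 (0.818) and TEDC1 (0.816). For SLC2A5 they were KLHDC7B (0.921), REEP2 (0.885) and MCF2L (0.842). SLC2A1 changed by 2.37 in KM-H2 and by -0.24 to 0.23 in the other lines, so its r values rest mainly on KM-H2.

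Among the enzymes, HK1 was most like DLG1 (0.849), HSD17B11 (0.843) and SLC25A24 (0.84). HK2 was most like KARS1 (0.977), HMGA1 (0.977) and PPRC1 (0.971), and PFKP like TKFC (0.916), FDXACB1 (0.915) and CDC123 (0.907). ALDOA came closest to PFAS (0.976), MRPS12 (0.971) and IMPDH2 (0.968). The nearest to ENO1 were DHX33 (0.967), IPO4 (0.964) and RRS1 (0.963), those to PKM were GSE1 (0.981), GRK5 (0.972) and MRPS34 (0.966), and those to LDHA were ELOA (0.945), XPNPEP3 (0.933) and CRYZ (0.932). No member was among the 3 nearest of another. The nearest genes were not sought without the arrays labelled L1236.

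Other genes of the pathway were counted by list. Over all tested genes, 21.2% were called lower and 17.4% higher on average, and 21.0% and 18.2% without the arrays labelled L1236. Of 16 other glycolytic enzymes tested, 11 were lower on average and 0 higher (median -0.12), the same counts without the arrays labelled L1236. Of 9 other transporters tested, 0 were called in either direction on average (median -0.0014; the lowest adjusted p was 0.069, for SLC2A6), and without those arrays 1 was higher and 1 lower. GPI, the isomerase after hexokinase, fell by 0.31 ± 0.029 on average (adjusted p = 1.03e-08) and was called lower in all lines but SUP-HD1 (-0.14, 0.288). ALDOC, another aldolase, fell by 0.98 ± 0.14 in KM-H2 (1.4e-05), 0.67 ± 0.14 in the arrays labelled L1236 (0.00129) and 0.39 in L428 (0.0464). PFKM, the muscle phosphofructokinase, fell by 0.82 ± 0.086 in the arrays labelled L1236 (1.59e-07) and 0.45 in KM-H2 (0.000379), and rose by 0.32 in L428 (0.00638). In KM-H2, the enolase ENO3 fell by 0.64 ± 0.13 (0.000891) while HKDC1, a hexokinase-like gene, rose by 0.53 ± 0.11 (0.000998).

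Among the other transporters, SLC2A13, which carries myo-inositol, fell by 0.57 ± 0.087 in KM-H2 (adjusted p = 2.44e-05) and 0.24 in L428 (0.042), and rose by 0.36 in the arrays labelled L1236 (0.00309) and 0.25 in UHO-1 (0.038). SLC2A12 rose by 0.53 ± 0.13 in the arrays labelled L1236 (0.00315, but 0.0591 without vehicle array 1). SLC2A2 and SLC5A1 stayed below the floor on all arrays. PGAM1, SLC16A1, SLC16A3 and PDP2 lacked a probe set annotated to them alone, so they were not analysed here. Probe sets of enzymes with many processed pseudogenes, such as GAPDH and LDHA, may share signal with those copies.

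Of 12 genes that control glycolysis, 1 was higher (HIF1A) and 2 lower (MYC and PFKFB4) on average (median -0.011). Over all tested genes 17.4% were called higher and 21.2% lower. MYC, which activates glycolytic genes in many proliferating cells, fell by 1.01 ± 0.034 on average (adjusted p = 2.82e-16, and -0.92 without the arrays labelled L1236). Its change was -2.44 ± 0.076 in KM-H2, -1.37 ± 0.076 in the arrays labelled L1236 and -0.61 ± 0.076 in L428. It was -0.43 ± 0.076 in SUP-HD1 (0.000738) and -0.21 ± 0.076 in UHO-1 (0.0468), and without KM-H2 the average of MYC was -0.66. TXNIP, which promotes the internalisation of SLC2A1, rose by 0.66 ± 0.1 in the arrays labelled L1236 (4.15e-05) and 0.36 in L428 (0.00956). PFKFB3, a producer of the activator of phosphofructokinase, rose by 0.55 ± 0.088 in the arrays labelled L1236 (5.72e-05) and fell by 0.47 ± 0.088 in L428 (0.000206), and its change differed between lines (F test, adjusted p = 1.93e-05). In the arrays labelled L1236, ARRDC4, a relative of TXNIP, fell by 0.56 ± 0.16 (0.0137), a call lost without vehicle array 2 (0.0979), 4-OHT array 1 (0.0508) or 4-OHT array 2 (0.0757).

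Of 11 genes of lactate and pyruvate fate, 3 were higher and 5 lower on average (median -0.040), the same counts without the arrays labelled L1236. The shares over all tested genes were 17.4% higher and 21.2% lower, and 18.2% and 21.0% without those arrays. The 3 higher ones act on the switch of pyruvate dehydrogenase: the kinases PDK1 and PDK3, which inhibit the enzyme, and the phosphatase PDP1, which reactivates it. Other genes of the enzyme and its switch did not rise on average. The kinase PDK2 fell by 0.16 ± 0.041 (adjusted p = 0.00365) and the enzyme subunit PDHA1 by 0.20 ± 0.03 (8.16e-06). The kinase PDK4 (0.0092, 0.909) and the subunit PDHB (-0.040, 0.407) were not called. PDK1 rose by 1.14 ± 0.084 in UHO-1 (adjusted p = 1.12e-09), 0.67 ± 0.084 in L428 (1.25e-06) and 0.31 in the arrays labelled L1236 (0.00798), and was not called in KM-H2 or SUP-HD1. PDK3 rose by 0.92 ± 0.075 in UHO-1 (6.76e-09) and 0.39 in L428 (0.000243), but fell by 0.35 in SUP-HD1 (0.00529) and 0.33 in KM-H2 (0.00172). PDP1 rose by 0.59 ± 0.074 in L428 (1.53e-06), 0.55 ± 0.074 in the arrays labelled L1236 (6.55e-06) and 0.22 in UHO-1 (0.0352). In the pentose phosphate branch 4 of 6 tested genes were lower on average and 0 higher (median -0.16), and 3 lower without those arrays. PGLS, its lactonase, fell by 0.51 ± 0.12 in the arrays labelled L1236 (0.00257).

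**Figure D5:**
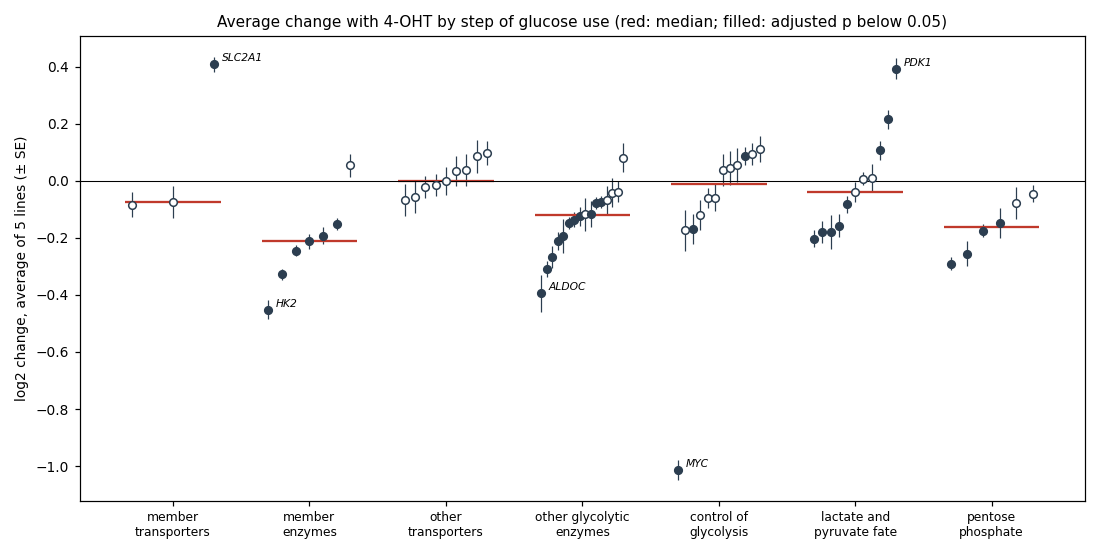
Log2 change with 4-OHT averaged over the 5 lines (y axis, ± SE) for each tested gene of 7 lists (x axis), with filled circles for an adjusted p below 0.05 and red lines at the list medians. The medians of the member enzymes (-0.21) and other glycolytic enzymes (-0.12) lie below the median of all tested genes (-0.025). So do those of the pentose phosphate branch (-0.16), member transporters (-0.075) and lactate and pyruvate fate (-0.040). The medians of the control genes (-0.011) and other transporters (-0.0014) do not. SLC2A1, PDK1, HK2, ALDOC and MYC are labelled as the genes farthest from 0.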

How the data were processed

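Human Gene 1.0 ST arrays were summarised by the authors as log2 values with RMA (robust multichip average) in Expression Console, per the series' design text and the labels. Its version and the genome build are not given in the sources used here. Sorted values differed by at most 0.253 within the arrays of KM-H2 and L428, by at most 0.204 within the other 12, and by 0.712 or more between these sets, so levels were compared only within a set. The platform annotation gave 1 symbol to 19457 of 33268 probe sets and several to 1751, and it did not list the remaining 12060. Groups came from the array titles.

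A model of 10 group means was fitted to all 20 arrays with limma 3.58.1 in R 4.3.3 (lmFit, eBayes with an intensity trend, 10 residual and 11.8 prior degrees of freedom), and tested on simulated data. The Benjamini-Hochberg adjustment ran over 15850 genes in each contrast, errors are limma's standard errors, and a gene was called at an adjusted p below 0.05. Alternatives were other scalings, floors, priors, probe set rules, samples in the fit and replicate blocks. Members were all named. Other pathway genes were named where a call came with an absolute change of at least 0.5. GPI, SLC2A6, HIF1A, PFKFB4, PDK2, PDK4, PDHA1 and PDHB were named after their values were seen. The members and lists were chosen with earlier results of these data known. Promoter sequences are RefSeq's.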

Additional observations from a re-analysis of the deposited data

Results flagged for a closer look

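The change with 4-OHT differed between the 5 lines, by limma's F test over all 15850 genes, for 8 of the 10 members. 42.7% of all tested genes passed the same test. The adjusted p was 1.47e-16 for SLC2A1, 0.0162 for SLC2A3 and 1.51e-07 for SLC2A5 among the transporters. Among the enzymes it was 8.44e-06 for HK2, 0.0338 for ALDOA, 2e-06 for ENO1, 4.29e-06 for PKM and 3.23e-06 for LDHA. Without the arrays labelled L1236, SLC2A3 no longer passed (0.878), and SLC2A5 passed at 5.57e-09.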

How the results depend on the processing

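Of 160 results on single genes, 126 kept their call in every alternative and 34 changed it in at least 1. In 3 cases the direction turned and the result was called as reported or in the alternative. The average of SLC2A1 was -0.186 over L1236, UHO-1 and SUP-HD1 alone and -0.0821 without KM-H2, and that of SLC2A5 was 0.177 without UHO-1. Changes of sign between results called in neither were not counted. With the 5 lines as replicates, 0 genes and 0 enzymes were called on average, where 2373 genes had an unadjusted p below 0.05, and over L1236, UHO-1 and SUP-HD1 alone 3979 genes were called, against 6122. The count of enzymes lower in UHO-1 was 1 after median centring and 5 after quantile normalisation, against 3. In SUP-HD1 it was 1, against 2, after median centring, without the intensity trend, with all probe sets tested and with its 4 arrays alone, and median centring left 627 genes called there, against 956.

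Leaving out single arrays gave 1 to 2 lower enzymes in SUP-HD1, and these counts of genes: 433 to 1014 in SUP-HD1 (433 and 451 without 4-OHT array 1 or 2), 1857 to 4275 in UHO-1 against 3878 (2328 and 1857 without vehicle 1 or 2, 2160 and 1914 without 4-OHT 1 or 2) and 2378 to 3781 in L1236 against 3661 (2378 without 4-OHT array 2). For the difference between UHO-1 and SUP-HD1 they gave 372 to 944 against 641 (379 without UHO-1 vehicle 2, 406 without UHO-1 4-OHT 2, 395 without SUP-HD1 vehicle 1, 414 and 372 without SUP-HD1 4-OHT 1 or 2), and for that between L1236 and the mean of both 2148 to 4210 against 3594 (2369 without L1236 vehicle 2, 2148 without 4-OHT 2). A lone array left in an arm is assumed to vary like the other groups. The split of higher and lower calls moved with the scaling: 2118 and 1760 in UHO-1, against 2449 and 914 after median centring and 2265 and 1292 after cyclic loess; 1307 and 2354 in L1236, against 853 and 2765 after median centring; 583 and 373 in SUP-HD1, against 458 and 169 after median centring.

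No source says that the replicate numbers pair the arrays, and the main fit held no term for them. The values gave no common answer. Deviations of arrays with the same number correlated at -0.557 for the label L1236, -0.0822 in KM-H2, 0.0372 in L428, 0.282 in SUP-HD1 and 0.294 in UHO-1. A replicate block of line and number gave 5877 genes called on average, against 6122, and again 6 lower enzymes. A crossed block for L1236, chosen after seeing the data, gave 4294 genes called there and 6 lower enzymes. The F test without L1236 was also chosen after seeing the data.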
